A study of Mus musculus with 28 samples.

Results

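A set of 10 genes of lipoprotein uptake, lipoprotein remodelling and cholesterol efflux were followed in the livers of mice with nonalcoholic steatohepatitis (NASH) treated with vehicle, obeticholic acid (OCA) or INT-787. The members were taken by name and matched by symbol to their Ensembl mouse genes. They were 4 uptake receptors (*Scarb1*, *Vldlr*, *Lrp1* and *Cd36*), 4 lipases and remodelling proteins (*Lipc*, *Lpl*, *Pltp* and *Lcat*) and 2 efflux pumps (*Abca1* and *Abcg1*). All 10 members were among the 21935 genes counted, and all 10 were among the 12580 genes that passed the filter on low counts and were tested.

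Liver messenger RNA was sequenced from 28 male Lep ob/ob mice, which lack leptin and were 5 weeks old on arrival. Mice of all groups, vehicle included, were fed the AMLN diet (40% fat, 20% fructose and 2% cholesterol). It was given for 14 weeks before treatment and also during treatment. Vehicle (10 mice), OCA at 30 mg/kg (9 mice) or INT-787 at 30 mg/kg (9 mice) was given by mouth every day for 2 weeks. Each group was thus 1 dose at 1 time point, and no lean or chow-fed mouse was part of the comparison. Both drugs are agonists of the farnesoid X receptor (FXR), and the comparisons ask how far each drug, and INT-787 relative to OCA, moved these transcripts.

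Lipoproteins carry cholesterol and triglyceride through the blood. The liver takes them up through receptors, hepatic and lipoprotein lipase trim their lipids, and phospholipid transfer protein and lecithin-cholesterol acyltransferase remodel high-density lipoprotein (HDL). Cells return cholesterol to HDL through ATP-binding cassette (ABC) pumps, which in macrophages respond to the sterol-sensing liver X receptor (LXR), while FXR is the liver's sensor for bile acids, the main product of cholesterol breakdown.

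Promoter sequences of the members that results turn on are shown so that the matches to nuclear receptor motifs can be read beside the expression values. RefSeq sequence (GRCm38.p6) was found for 7 of the 10 members in 9 windows, and *Scarb1*, *Lpl* and *Abcg1* had no entry in the table used. Each line runs 5′ to 3′ on the strand of the gene and ends at or close to the base before an annotated start, without bases that any annotated exon covers. Capitals mark matches to the nuclear receptor half-site AGGTCA on either strand.
*Lipc*, second annotated start, chr9:70934809-70935058, minus strand: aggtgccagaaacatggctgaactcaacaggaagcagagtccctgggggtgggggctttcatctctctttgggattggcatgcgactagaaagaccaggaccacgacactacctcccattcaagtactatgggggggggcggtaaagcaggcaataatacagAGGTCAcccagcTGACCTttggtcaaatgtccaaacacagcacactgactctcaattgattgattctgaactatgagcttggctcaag
*Cd36*, chr5:17835897-17836146, minus strand: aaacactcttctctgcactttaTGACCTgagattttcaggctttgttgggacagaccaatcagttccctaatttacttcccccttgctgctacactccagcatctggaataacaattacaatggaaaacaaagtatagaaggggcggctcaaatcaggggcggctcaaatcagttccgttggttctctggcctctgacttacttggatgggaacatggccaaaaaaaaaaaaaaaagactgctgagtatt
*Vldlr*, first annotated start, chr19:27216234-27216483, plus strand: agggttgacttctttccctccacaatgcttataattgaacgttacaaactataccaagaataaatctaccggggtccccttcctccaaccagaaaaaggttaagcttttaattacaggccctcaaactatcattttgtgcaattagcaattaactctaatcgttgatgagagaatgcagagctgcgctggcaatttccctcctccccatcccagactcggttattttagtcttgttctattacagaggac
*Lcat*, chr8:105943403-105943589, minus strand: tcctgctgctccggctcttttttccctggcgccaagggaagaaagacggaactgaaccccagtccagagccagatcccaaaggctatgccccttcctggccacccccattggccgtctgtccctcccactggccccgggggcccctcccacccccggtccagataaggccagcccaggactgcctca

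The *Lipc* window held 2 half-sites, AGGTCA with its first base at -88 and TGACCT with its first base at -76 relative to the start, and the *Cd36* window held TGACCT at -228. The search covered the whole windows of the table, which are all of one length and of which the lines above show the stretch without exons. A half-site was present in 16.3% of the 32851 windows, those of the members included. Further motifs were searched on both strands, all of which but the last contain the half-site. The inverted repeat AGGTCANTGACCT, the arrangement FXR is known to bind, was found with up to 2 mismatches in 1.14% of all windows. The direct repeat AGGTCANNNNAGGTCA, the arrangement LXR is known to bind, was found with up to 2 mismatches in 3.02%, and the sterol element TCACNCCAC in 1.24%. No window of the 7 members held any of these 3. These are matches of letters in short windows only, and no binding was measured.

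The libraries were checked before the members were compared. Vehicle replicate 6 was shallow, with 1009593 counts in all, whereas the other 27 libraries held 9313260 to 22421506. A list of 10 hepatocyte markers, albumin among them, summed to between 81400 and 212770 CPM (read counts scaled by library total), and none was at 0 in any mouse. In vehicle replicate 5, 131 weakly expressed genes that lie over an exon of another gene on the opposite strand summed to 233 CPM, against 11.8 to 18.4 CPM in the other 27 mice. *Pltp* is the only member with such an overlap, of 495 bases with *Ctsa*. Since the strand setting of the counting is not given in the sources used here, reads of *Ctsa* over these bases may have been counted as *Pltp*, and the *Pltp* values, that of vehicle replicate 5 included, are uncertain to that extent. An index of RNA length, the median log2 deviation of 3142 long genes (at least 6861.75 exon bases) minus that of 3142 short genes (at most 2860.25 exon bases), with the members left out, was -0.69 in vehicle replicate 10 and -0.38 in vehicle replicate 5. It lay between -0.26 and 0.46 in the other mice, and its group medians were 0.02, 0.01 and 0.00 for vehicle, OCA and INT-787. Values for *Lrp1*, *Abca1*, *Lcat*, *Lipc* and *Pltp* against vehicle are therefore also given without vehicle replicates 5 and 10. That fit removed mice only at the low end of the index. It kept vehicle replicate 1, the highest at 0.46, which was highest of its group in *Lrp1* and *Abca1* and lowest in *Lipc*, *Pltp* and *Lcat*. The vehicle group without those 2 mice is therefore not balanced on the index.

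INT-787 changed 6 of the 10 members compared with vehicle, and OCA changed 4 (edgeR's quasi-likelihood test, Benjamini-Hochberg adjusted over all 12580 genes, adjusted p of at most 0.05). With INT-787, *Scarb1*, *Lipc* and *Lcat* rose and *Vldlr*, *Lpl* and *Pltp* fell. Of all genes tested, 19.6% passed in this comparison, 10.2% higher and 9.48% lower. With OCA, *Scarb1* and *Lcat* rose and *Vldlr* and *Cd36* fell, where 6.6% of all genes passed, 4.15% higher and 2.45% lower. INT-787 and OCA differed in 2 members, *Abcg1* and *Lpl*, both lower under INT-787, where 5.38% of all genes passed, 2.19% higher and 3.19% lower. The median log2 fold change of the 10 members was -0.22 for INT-787 against vehicle, 0.16 for OCA against vehicle and 0.08 for INT-787 against OCA, beside 0.00, 0.02 and -0.01 for all genes tested. Both drugs were compared with the same 10 vehicle mice, so the calls of one comparison are not independent of those of the other.

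**Figure D1:**
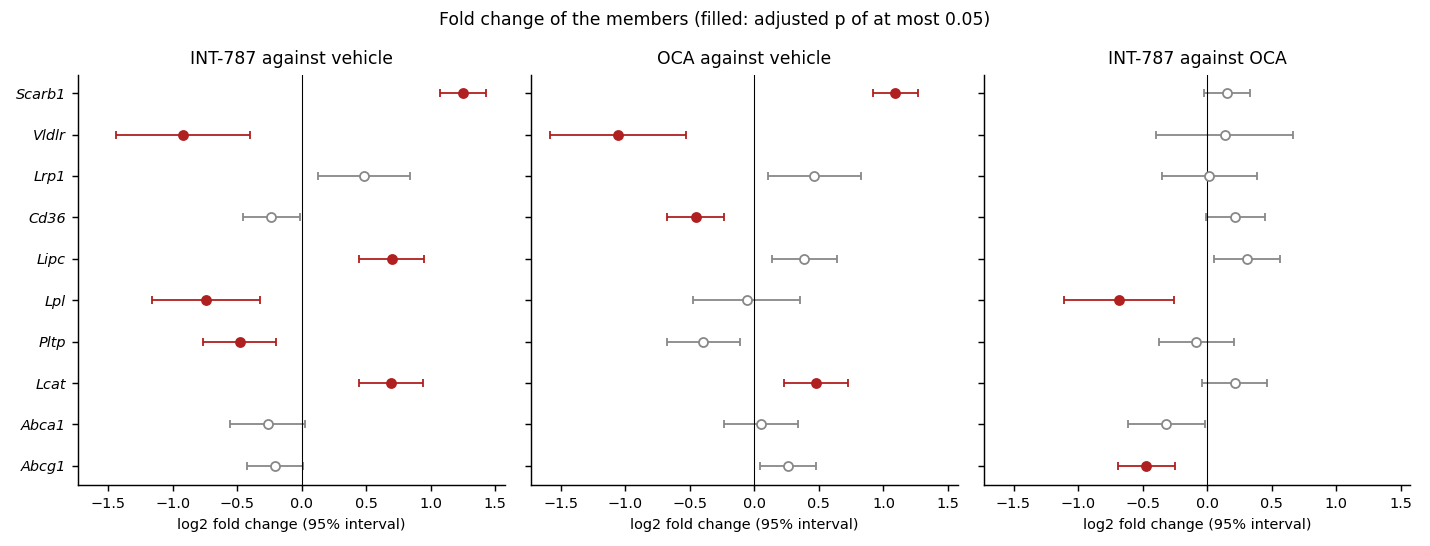
Log2 fold change of each of the 10 members (rows) with its 95% interval, in the 3 comparisons (panels), where filled red points have an adjusted p of at most 0.05 in edgeR. *Scarb1* is the member farthest above 0 with both drugs, at 1.25 with INT-787 and 1.09 with OCA, and only *Lpl* and *Abcg1* are filled between the drugs.

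Levels were also set per kilobase of exon, with all annotated exons of a gene merged. This length can exceed that of the transcript expressed, so the order of genes on this scale is approximate. Vehicle livers had most *Lcat* (mean 297 CPM per kb, range 204 to 427), then *Cd36* (136, range 119 to 158) and *Pltp* (68.8, range 49.3 to 111). *Lipc* (49.5), *Lrp1* (46.6), *Lpl* (26.96), *Abca1* (22.7) and *Scarb1* (18.6) followed, and the ranges of neighbours in this stretch from *Pltp* to *Scarb1* overlapped. *Abcg1* (4.40, range 3.00 to 5.68) and *Vldlr* (1.36, range 0.680 to 2.46) were the lowest, and the ranges of *Lcat*, *Cd36*, *Abcg1* and *Vldlr* overlapped with no other member's. *Vldlr* was counted with only 14 to 303 reads per vehicle mouse, so its level is the least precise of the set.

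**Figure D2:**
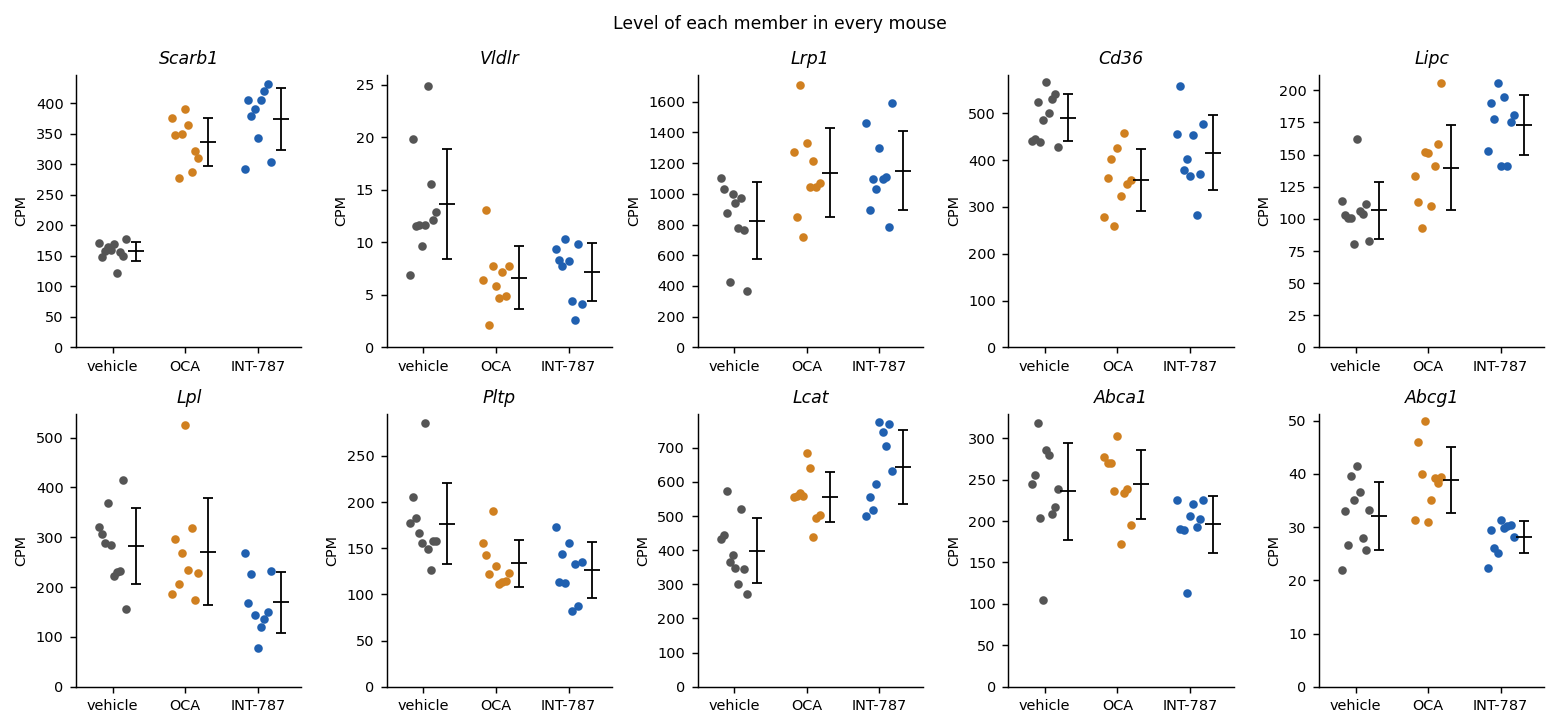
CPM of each member (panels, each axis starting at 0) in every mouse, with 1 point per mouse and the group mean ± SD in black to the right of each group (vehicle n = 10, OCA n = 9, INT-787 n = 9). *Scarb1* separates every drug-treated mouse from every vehicle mouse, with a highest vehicle value of 178 CPM and a lowest treated value of 277 CPM, while the groups of the other 9 members overlap.

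Among the uptake receptors, *Scarb1* encodes SR-BI, the receptor that takes cholesteryl ester from HDL into hepatocytes. Its level was 122, 159 and 178 CPM (lowest, median and highest) in vehicle mice, 277, 349 and 391 CPM with OCA, and 293, 390.5 and 432 CPM with INT-787. Every treated mouse was above every vehicle mouse. *Scarb1* rose 2.37-fold with INT-787 (95% interval 2.10 to 2.68, log2 fold change 1.25 ± 0.087 SE, adjusted p = 1.95e-12) and 2.13-fold with OCA (1.89 to 2.41, log2 fold change 1.09 ± 0.087, adjusted p = 1.64e-10). It stood at rank 12 of 12580 genes by p for INT-787 and at rank 5 for OCA. *Scarb1* was the only member whose groups did not overlap, in both comparisons with vehicle, which held for 2.66% of all genes with INT-787 and 0.89% with OCA. Between the drugs, where 0.509% of all genes did not overlap, no member was separated, and INT-787 against OCA gave 1.11-fold for *Scarb1* (0.983 to 1.26, adjusted p = 0.352), an interval that reaches from no difference to 1.26-fold.

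*Vldlr* encodes the very-low-density lipoprotein receptor, which is low in healthy liver and binds triglyceride-rich particles. It measured 6.85, 11.9 and 24.8 CPM in vehicle mice, 2.17, 6.41 and 13.03 CPM with OCA, and 2.65, 8.20 and 10.3 CPM with INT-787. All 9 INT-787 mice and 8 of 9 OCA mice lay below the vehicle median, and the groups overlapped. *Vldlr* fell to 0.528 of vehicle with INT-787 (0.368 to 0.756, log2 fold change -0.92 ± 0.255, adjusted p = 0.00963) and to 0.48 with OCA (0.334 to 0.691, log2 fold change -1.06 ± 0.257, adjusted p = 0.00805). The drugs were not told apart, with a ratio of INT-787 to OCA of 1.10 (0.759 to 1.59, adjusted p = 0.855).

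*Cd36* encodes a scavenger receptor and fatty acid translocase that is expressed on hepatocytes, macrophages and endothelium. Vehicle mice held 427, 492.6 and 567 CPM, OCA mice 258, 358 and 459 CPM, and INT-787 mice 282, 401 and 559 CPM. With OCA, 8 of 9 mice lay below the lowest vehicle mouse, against 5 of 9 with INT-787. *Cd36* fell to 0.729 of vehicle with OCA (0.624 to 0.85, log2 fold change -0.46 ± 0.109, adjusted p = 0.00697). With INT-787 the ratio was 0.848 (0.727 to 0.989) and did not pass (adjusted p = 0.125), and the ratio of INT-787 to OCA, 1.16 (0.995 to 1.36), did not pass either (adjusted p = 0.286). That *Cd36* passed with 1 drug and not with the other is therefore no measured difference between them. In bulk liver, fewer cells of a type and less RNA per cell cannot be told apart, which holds for each member that several cell types express.

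*Lrp1* encodes a large endocytic receptor for chylomicron remnants and many other ligands, and had the most annotated exon sequence of the set, 17.717 kb. Its level was 364, 908 and 1101 CPM in vehicle mice, 717, 1072 and 1709 CPM with OCA, and 784, 1097 and 1591 CPM with INT-787. Vehicle replicates 10 and 5 stood lowest, at 364 and 423.5 CPM, with the other 8 vehicle mice at 764 CPM or more. The log2 fold change was 0.48 ± 0.176 with INT-787 (adjusted p = 0.0508) and 0.47 ± 0.176 with OCA (adjusted p = 0.119), and neither passed in this fit. When mice were grouped by neighbouring label numbers and this grouping entered the model, log2 fold changes were 0.51 (adjusted p = 0.0085) with INT-787 and 0.51 (adjusted p = 0.0275) with OCA, and both passed, and with INT-787 *Lrp1* passed in 14 of 42 alternatives. Both became smaller without vehicle replicates 5 and 10, at 0.31 (adjusted p = 0.13) and 0.28 (adjusted p = 0.274). With the length index as a covariate they were 0.46 and 0.46 and both passed (adjusted p = 0.00153 and 0.0035).

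Among the lipases, *Lipc* encodes hepatic lipase, which hydrolyses triglyceride and phospholipid of remnants and HDL. Its level was 80.4, 104 and 162 CPM in vehicle mice, 93.3, 141 and 205 CPM with OCA, and 141, 177 and 206 CPM with INT-787. Vehicle replicate 10 stood alone at 162 CPM above a next highest vehicle value of 114 CPM, and 6 of 9 INT-787 mice were above it. *Lipc* rose 1.62-fold with INT-787 (1.36 to 1.93, log2 fold change 0.70 ± 0.123, adjusted p = 9.88e-05), and without vehicle replicates 5 and 10 the log2 fold change was 0.81 (adjusted p = 1.14e-05). With OCA the change was 1.31-fold (1.10 to 1.55, log2 fold change 0.39 ± 0.123) and did not pass (adjusted p = 0.0537), but it passed without those 2 mice, at a log2 fold change of 0.48 (adjusted p = 0.0097). INT-787 against OCA gave 1.24-fold (1.04 to 1.48, adjusted p = 0.156). With INT-787, 5 of the 10 hepatocyte markers were higher and 1 lower than with vehicle, and with OCA 5 were higher (edgeR). Under upper-quartile normalization 3 were higher and 1 lower with INT-787. Their sum was 81400 to 145820 CPM in vehicle mice, 126602 to 212770 CPM with OCA and 112661 to 185298 CPM with INT-787. Their part in the rise of *Scarb1*, *Lipc* and *Lcat* was not tested. The 2 half-sites in the second *Lipc* window above are the only pair among the members' windows.

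*Lpl* encodes lipoprotein lipase, which in adult liver is expressed mainly outside hepatocytes, in macrophages among others. Its level was 155, 287 and 415 CPM in vehicle mice, 174, 235 and 525 CPM with OCA, and 77.2, 149 and 269 CPM with INT-787. All 9 INT-787 mice lay below the vehicle median and 5 below the lowest vehicle mouse, whereas OCA replicate 8, at 525 CPM, was the highest of all 28 mice. *Lpl* fell to 0.598 of vehicle with INT-787 (0.448 to 0.799, log2 fold change -0.74 ± 0.205, adjusted p = 0.00974). With OCA the ratio was 0.959 (0.72 to 1.28, adjusted p = 0.935). INT-787 against OCA gave a ratio of 0.624 (0.464 to 0.838, log2 fold change -0.68 ± 0.209, adjusted p = 0.0499). This call sat at the threshold: without OCA replicate 8 the log2 fold change was -0.50 (adjusted p = 0.179), and 27 of 42 alternatives lost it.

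*Pltp* encodes phospholipid transfer protein, which moves phospholipid between particles and enlarges HDL. Vehicle mice held 126, 162 and 285 CPM, OCA mice 112, 124 and 190 CPM, and INT-787 mice 81.7, 133 and 173 CPM. The 2 highest vehicle values, 285 and 206 CPM, belonged to replicates 10 and 5. *Pltp* fell to 0.716 of vehicle with INT-787 (0.589 to 0.872, log2 fold change -0.48 ± 0.139, adjusted p = 0.0131), and the OCA ratio of 0.759 (0.624 to 0.923) did not pass (adjusted p = 0.0844). Without vehicle replicates 5 and 10 the log2 fold change was -0.32 with INT-787 (adjusted p = 0.0697), and did not pass, and -0.26 with OCA (adjusted p = 0.238). With the length index as a covariate the INT-787 value was -0.43 and passed (adjusted p = 0.0143). That fit uses 1 slope for all groups, whereas Pearson's r of *Pltp* with the index was -0.88 within vehicle, -0.15 within OCA and 0.35 within INT-787. It therefore does not offset the call lost without the 2 mice. INT-787 against OCA gave 0.944 (0.773 to 1.15, adjusted p = 0.83).

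*Lcat* encodes the plasma enzyme that esterifies cholesterol on HDL and is made by hepatocytes. Its level was 273, 376 and 573 CPM in vehicle mice, 440.1, 558 and 684 CPM with OCA, and 499, 632 and 775 CPM with INT-787. Every treated mouse was above the vehicle median, and vehicle replicates 10 and 5 were the highest of their group, at 573 and 520.3 CPM. The next vehicle mouse, at 444 CPM, was below all 9 INT-787 mice and above 1 OCA mouse, at 440.1 CPM. *Lcat* rose 1.61-fold with INT-787 (1.36 to 1.91, log2 fold change 0.69 ± 0.12, adjusted p = 8.34e-05) and 1.39-fold with OCA (1.17 to 1.65, log2 fold change 0.48 ± 0.12, adjusted p = 0.0108). With vehicle replicates 5 and 10 left out the log2 fold changes were 0.84 (adjusted p = 2.27e-06) and 0.61 (adjusted p = 0.000562). INT-787 against OCA gave 1.16-fold (0.974 to 1.38, adjusted p = 0.366), and the drugs were not told apart.

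Of the efflux pumps, *Abca1* encodes the transporter that loads cholesterol onto lipid-poor apolipoprotein A-I, the first step of HDL formation. Its level was 105, 241 and 319 CPM in vehicle mice, 172, 239 and 303 CPM with OCA, and 113, 203 and 225 CPM with INT-787. All 9 INT-787 mice lay below the vehicle median and below the OCA median, but vehicle replicate 10, at 105 CPM, was below them all. The log2 fold change was -0.27 ± 0.142 with INT-787 (adjusted p = 0.199), 0.05 ± 0.142 with OCA (adjusted p = 0.918) and -0.32 ± 0.145 for INT-787 against OCA (adjusted p = 0.226). None passed in this fit. Without vehicle replicates 5 and 10 the value for INT-787 against vehicle was -0.38 and passed (adjusted p = 0.0228), and that for OCA was -0.08 (adjusted p = 0.759). That fit kept vehicle replicate 1, the highest of its group at 319 CPM and in the length index. With the length index as a covariate *Abca1* was lower with INT-787 than with vehicle (-0.28, adjusted p = 0.0119) and than with OCA (-0.33, adjusted p = 0.0136).

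*Abcg1* encodes the transporter that exports cholesterol to mature HDL, and is most abundant in macrophages and endothelium. Its level was 21.9, 33.2 and 41.4 CPM in vehicle mice, 30.9, 39.2 and 49.9 CPM with OCA, and 22.3, 29.4 and 31.3 CPM with INT-787. The INT-787 values were the narrowest of the 3 groups, and 8 of 9 lay below the lowest OCA mouse. Against vehicle neither drug passed, with a ratio of 0.864 for INT-787 (0.743 to 1.00, adjusted p = 0.17) and 1.20 for OCA (1.03 to 1.39, adjusted p = 0.158). INT-787 mice had less *Abcg1* than OCA mice, at a ratio of 0.721 (0.619 to 0.84, log2 fold change -0.47 ± 0.108, adjusted p = 0.00762). This call was kept under all 42 alternatives, with log2 fold changes between -0.51 and -0.42 and adjusted p between 0.000245 and 0.023.

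Markers of lipid-associated macrophages, a list of 8 genes that includes *Trem2*, *Gpnmb* and *Itgax*, were set beside *Lpl* and *Abcg1*. Their summed level was between 850 and 1283 CPM in vehicle mice, 838 and 2245 CPM with OCA, and 517 and 831 CPM with INT-787, so every INT-787 mouse was below every mouse of the other groups. No marker of the list was at 0 in any mouse. Of the 8 markers, 7 were lower with INT-787 than with vehicle and 7 were lower than with OCA (5 without OCA replicate 8), and 0 of 8 changed with OCA in edgeR. For OCA, 2 of the 8 had an unadjusted p under 0.05, DESeq2 and limma-voom called 0, and without vehicle replicates 5 and 10 edgeR called 1 higher. OCA replicate 8 had the highest marker sum, 2245 CPM, and the highest *Lpl* and *Abcg1*. A broader list of 12 Kupffer cell and macrophage markers summed to 932 to 1256, 683 to 1489 and 566 to 1114 CPM, and 5 of the 12 were lower with INT-787 against vehicle. Against OCA, 1 of the 12 was higher and 2 were lower with INT-787, and without OCA replicate 8 edgeR called 1, a lower one, with 5 at an unadjusted p under 0.05. Markers of sinusoidal endothelium, 8 genes, summed to 176 to 334, 172 to 258 and 135 to 262 CPM in the 3 groups, with 2 of the 8 lower with INT-787 (4 by DESeq2 and without vehicle replicates 5 and 10, and 5 under upper-quartile normalization). With OCA edgeR, DESeq2 and limma-voom called 0 of these 8, 5 had an unadjusted p under 0.05, and edgeR called 1 lower without vehicle replicates 5 and 10. The part of these markers in the *Lpl*, *Abcg1* and *Cd36* results was not tested. Adipocyte markers, 6 genes checked because *Lpl* and *Cd36* are also abundant in fat, summed to 1.11 to 7.35 CPM in vehicle mice, 0.124 to 1.20 CPM with OCA and 0.165 to 0.939 CPM with INT-787, with *Adipoq*, *Retn*, *Plin1* and *Lep* at 0 in some mice of every group. Only *Cfd* of this list passed the filter on low counts used for edgeR, and it fell with INT-787 (log2 fold change -4.08, edgeR adjusted p = 4.59e-06) and with OCA (-3.33, adjusted p = 9.44e-05). The part of the adipocyte markers in the *Lpl* and *Cd36* results was not tested.

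**Figure D3:**
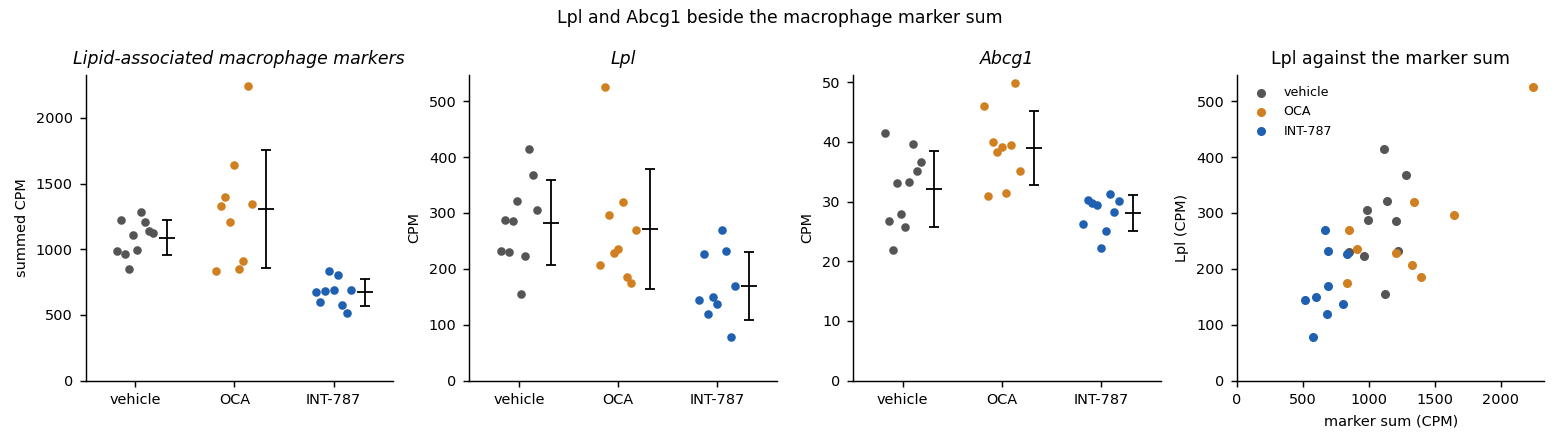
Summed CPM of 8 lipid-associated macrophage markers, CPM of *Lpl* and CPM of *Abcg1* by group (first 3 panels, 1 point per mouse, mean ± SD in black), and *Lpl* against the marker sum (last panel). The 9 INT-787 mice are the lowest in the marker sum, at 831 CPM or less, and OCA replicate 8 is the point at the upper right with 2245 CPM of markers and 525 CPM of *Lpl*.

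The length index followed some members closely within groups. After removal of the group means, *Abca1* and the index correlated over 28 mice with Pearson's r = 0.87 and Spearman's rho = 0.78 (permutation within groups, adjusted over 10 members, p = 5e-05 for both), and *Lrp1* with r = 0.85 and rho = 0.75 (permutation, adjusted p = 5e-05 for both). The unadjusted p of 1e-05 behind each is the smallest that 100000 permutations can give. Both were positive within each group, with r from 0.73 to 0.94. Without the 2 mice farthest from the median index, r was 0.76 for *Abca1* and 0.80 for *Lrp1*. *Lcat*, with 1.342 kb of exon the shortest member, had r = -0.61 (adjusted p = 0.0102) and rho = -0.49 (adjusted p = 0.0437), but r was -0.35 without those 2 mice. Within groups its r was -0.89 in vehicle, -0.34 in OCA and 0.11 in INT-787. The other 7 did not pass, with r between -0.40 and 0.39 (adjusted p from 0.0722 to 0.525 for r and from 0.113 to 0.498 for rho). Within single groups r went beyond this range for some of them. Examples are -0.88 for *Pltp* and -0.80 for *Lipc* in vehicle, and 0.79 for *Abcg1* and 0.68 for *Scarb1* in INT-787. For *Scarb1* r over all 28 mice was 0.28. With the index as a covariate 8 members passed with INT-787 and 6 with OCA against vehicle, and 3 between the drugs, while the shares of all genes that passed were 24.1%, 9.26% and 7.95%.

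**Figure D4:**
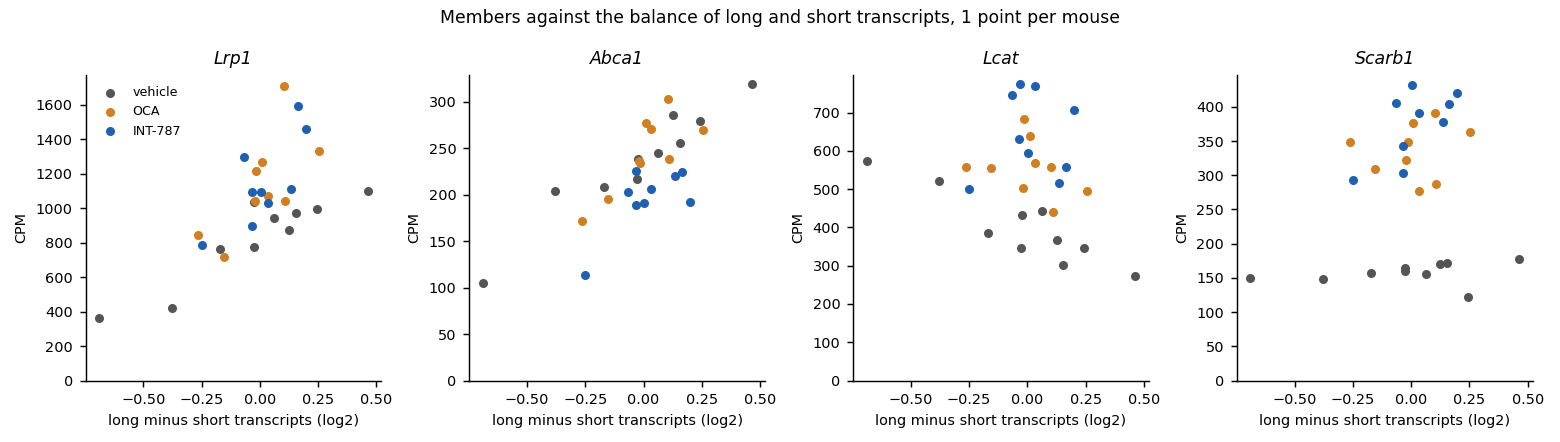
CPM of *Lrp1*, *Abca1*, *Lcat* and *Scarb1* (panels, vertical axes starting at 0) against the index of long minus short transcripts on the log2 scale, with 1 point per mouse coloured by group. Vehicle replicates 10 and 5 are the 2 leftmost points, at -0.69 and -0.38, with the lowest *Lrp1* and the highest vehicle *Lcat*, and in the stretch of the axis where treated mice lie, from -0.26 to 0.25, all of them are above all vehicle mice in *Scarb1*.

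The genes most like each member, by Pearson's r of group-centred log2 CPM over 28 mice and among 9355 genes with a mean of at least 5 CPM, are given as a description. *Abcg1* was nearest to *Lcp1* (r = 0.78), *Dock2* (0.78) and *Soat1* (0.75), and *Lpl* to *B4galt6* (0.80), *Hacd4* (0.78) and *Itgax* (0.77), the last of which is on the list of lipid-associated macrophage markers. *Lcat* was nearest to *Serpinc1* (0.89), *Cyp2d26* (0.88) and *Cyp2d10* (0.88), and *Lipc* to *Hrg* (0.84), *Kng1* (0.82) and *Tpm2* (0.80). Among the genes nearest to *Scarb1* were *Atf5* and *Mboat7* (both 0.68). *Vldlr* was nearest to *Igfbp1* (0.80), *Abcd2* (0.75) and *Cyp2b9* (0.75), *Cd36* to *Coa5* (0.89), *Lamp1* (0.77) and *Mtch2* (0.75), while *Map2k2* (0.82) and *Clptm1* (0.81) were among those nearest to *Pltp*. The nearest genes of *Lrp1* (*Ptprf*, 0.96; *Ankrd52*, 0.95; *Kif13b*, 0.95) had 8.401 to 13.017 kb of exon, and those of *Abca1* (*Arl5a*, *Akap11* and *Alg10b*, all 0.91) had 5.409 to 11.015 kb. Among the members themselves the highest values were *Lrp1* with *Abca1* (0.78), *Pltp* with *Lcat* (0.72) and *Lpl* with *Abcg1* (0.62).

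Of 62 further genes of these pathways that were tested, 11 rose and 5 fell with INT-787 against vehicle, 9 higher and 5 lower with OCA, and 2 higher and 1 lower when INT-787 was set against OCA. Of all 12580 genes tested, 10.2% were higher and 9.48% lower with INT-787, 4.15% and 2.45% with OCA, and 2.19% and 3.19% between the drugs. The same shares of the main fit stand beside the counts of each list below and of the marker lists. The median log2 fold changes of the 62 genes were 0.02, 0.01 and -0.01. For each list, counts under some other settings are given as well.

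Among 16 other receptors and their adaptors, 2 were higher and 2 lower with INT-787, and 1 was lower with OCA. Under upper-quartile normalization the INT-787 counts were 0 higher and 2 lower by edgeR. Without vehicle replicates 5 and 10, 1 was higher and 3 lower with INT-787 and 2 were lower with OCA, and with the length index 1 was higher and 1 lower with OCA. *Pdzk1*, the adaptor that holds SR-BI at the hepatocyte surface, fell with both drugs, by 0.53 with INT-787 (adjusted p = 0.000135) and by 0.36 with OCA (adjusted p = 0.0161) on the log2 scale, opposite to *Scarb1*. *Msr1*, a macrophage scavenger receptor, fell by 0.72 with INT-787 (adjusted p = 0.000411), and *Sdc1* (0.33) and *Lsr* (0.28), both hepatic remnant receptors, rose. None of the 16 differed between the drugs by edgeR, DESeq2 or limma-voom, and 2 had an unadjusted p under 0.05 in edgeR.

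Among 15 lipase cofactors, inhibitors and other lipases, INT-787 raised 2, and OCA raised 2 and lowered 2. *Apoa5*, an activator of lipolysis, rose with INT-787 (0.49, adjusted p = 0.00556), and *Sel1l*, needed for the maturation of lipoprotein lipase, rose with both drugs (0.29 and 0.29, adjusted p = 0.0138 and 0.0305). *Angptl8*, an inhibitor of lipoprotein lipase, rose with OCA (0.85, adjusted p = 0.0337), and *Mgll* (monoacylglycerol lipase, -0.53) and *Gpihbp1* (the endothelial anchor of lipoprotein lipase, -0.43) fell with OCA. Without vehicle replicates 5 and 10, 4 were higher with INT-787, and with OCA 1 was higher and neither *Mgll* nor *Gpihbp1* passed. With the length index as a covariate 5 were higher with INT-787. Between the drugs edgeR, DESeq2 and limma-voom called 0 of the 15, with 1 at an unadjusted p under 0.05 in edgeR.

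Among 12 genes of HDL formation and remodelling, INT-787 raised 1 and lowered 2, and OCA raised 2. *Soat2*, which esterifies cholesterol in hepatocytes, rose by 0.95 with INT-787 (adjusted p = 5.72e-08) and by 0.54 with OCA (adjusted p = 0.000848), and was higher with INT-787 than with OCA by 0.41 (adjusted p = 0.0203). *Soat1*, the form found in macrophages, moved the other way: it fell by 0.50 with INT-787 (adjusted p = 0.0129), had a value of 0.16 with OCA (adjusted p = 0.616) and was lower with INT-787 than with OCA by 0.66 (adjusted p = 0.0054). *Pla2g7*, the lipoprotein-associated phospholipase of macrophages, fell by 0.46 with INT-787 (adjusted p = 0.0127), and *Apof* rose by 0.40 with OCA (adjusted p = 0.0305). Without vehicle replicates 5 and 10, and likewise with the length index, 3 were higher with INT-787, and upper-quartile normalization left 1 higher with OCA.

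Among 13 genes of intracellular sterol transport and other efflux, 6 rose with INT-787, and 4 rose and 2 fell with OCA. *Abcg5* and *Abcg8*, the paired pumps that send sterols into bile, rose with INT-787 (0.82 and 0.56, adjusted p = 3.61e-05 and 0.000713) and with OCA (0.74 and 0.62, adjusted p = 0.00037 and 0.000521). *Abca2* rose with both (0.72 and 0.83, adjusted p = 0.000107 and 4.38e-05), as did *Stard4*, a cytosolic sterol carrier (0.63 and 0.48), while *Npc1*, which moves cholesterol out of lysosomes, rose with INT-787 (0.47, adjusted p = 0.000168) and had 0.27 with OCA (adjusted p = 0.0502). *Cyp27a1*, an enzyme that oxidises sterols on the way to bile acids, fell with OCA (-0.28, adjusted p = 0.042) and was higher with INT-787 than with OCA (0.42, adjusted p = 0.00322). Without vehicle replicates 5 and 10 the counts were 5 higher and 1 lower with INT-787 and 3 higher and 1 lower with OCA, and between the drugs 2 were then higher, as with DESeq2 and with the length index. Upper-quartile normalization gave 5 higher and 2 lower with INT-787, and without OCA replicate 8 the OCA counts were 5 higher and 1 lower.

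LXR and its targets, 13 genes of which 4 are members, had 2 higher and 3 lower with INT-787 and 3 higher with OCA, where 1 was also lower without vehicle replicates 5 and 10. The 2 were *Abcg5* and *Abcg8*, and the 3 were *Scd1* (stearoyl-CoA desaturase, -0.79, adjusted p = 0.00581), *Lpl* and *Pltp*. *Abca1* and *Abcg1*, the pumps of peripheral efflux, did not pass with either drug. Between the drugs *Abcg1* and *Lpl* were the only 2 of the list that passed, and *Abcg1* alone did so without OCA replicate 8.

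**Figure D5:**
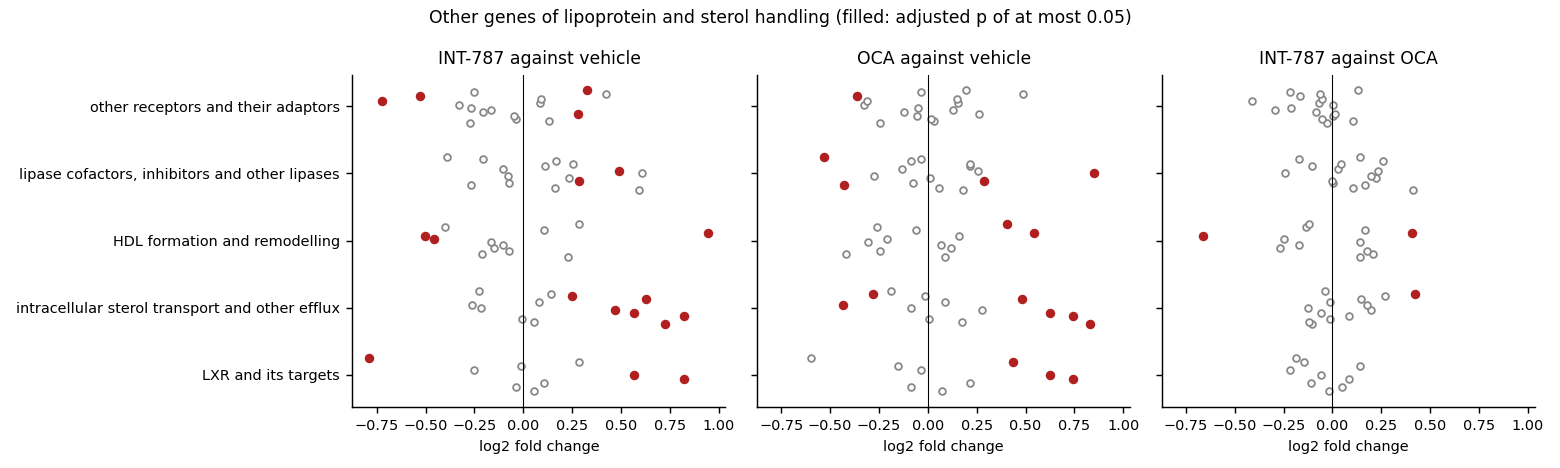
Log2 fold change of each further gene in the 5 pathway lists (rows, 1 point per gene, the 10 members left out) in the 3 comparisons (panels), filled red where the adjusted p was at most 0.05. The sterol transport list has 6 filled points above 0 with INT-787, and few points of any list are filled between the drugs.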

How the data were processed

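The authors prepared stranded messenger RNA libraries from terminal liver samples, sequenced them on a NextSeq 500, and used STAR 2.5.2a for alignment to GRCm38 (Ensembl release 89). They deposited raw, unnormalized counts per Ensembl gene for each mouse. How reads were counted, with or without strand, is not given in the sources used here. Groups came from the sample labels. Of the 21935 gene identifiers, 21858 had a symbol in GENCODE M21, which also gave exon lengths, with all annotated exons of a gene merged. The rows at 0 in every mouse numbered 4615. The labels do not say how RNA was batched, and the study's methods randomized 10 mice per group.

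Counts were filtered by filterByExpr on the 3 groups (12580 genes), normalized by TMM and tested with glmQLFit and glmQLFTest of edgeR 4.0.16 (R 4.3.3) in 1 model of the 3 groups without covariates. P values were adjusted by the Benjamini-Hochberg method over 12580 genes, with 95% intervals from the same fit. The study's methods use DESeq2, which was run as an alternative (1.42.0), as was limma-voom (limma 3.58.1). CPM used TMM-scaled library totals, so their precision follows the depth of each library, and median totals were 12901575 (vehicle), 16017276 (OCA) and 14777433 (INT-787). Intervals and tests describe the spread between these mice. Any 2 libraries differed by more than sampling noise (chi-square per gene at least 3.00). Alternatives were other normalizations, filters and tools, 2 groups per fit, a replicate block, the set of neighbouring sample numbers, an adjusted p of at most 0.01, and each mouse left out. The length index as a covariate, the fit without vehicle replicates 5 and 10, and the counts of lists under other settings were chosen after seeing the data. Correlations with the index were tested by 100000 permutations within groups (Python 3.11.15, numpy 2.4.6, scipy 1.17.1), and likeness used log2(CPM + 0.5).

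The members, the 5 pathway lists and the 8 marker lists were chosen with earlier results of these data known. Named were all members, every gene of a pathway list that passed in any comparison or, where more than 6 did, the 6 with the lowest adjusted p, the 3 genes most like each member, and some marker genes of lists set beside a member. Some genes that this rule or these lists hold are not reported here, and the pathway counts leave them out. Of the other marker lists, 4 of 10 stellate cell genes fell with INT-787 against vehicle (edgeR), while of 4 cholangiocyte and 4 lymphocyte genes tested edgeR, DESeq2 and limma-voom called 0, with 1 and 0 at an unadjusted p under 0.05. With OCA all 3 tools called 0 in these lists, with 3, 0 and 1 at an unadjusted p under 0.05. Without OCA replicate 8, 1 cholangiocyte gene was lower with INT-787 and 1 stellate cell gene with OCA. The edgeR fit was tested on simulated data.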

Additional observations from a re-analysis of the deposited data

Results flagged for a closer look

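Of 30 sets of values (10 members in 3 groups), 5 held a mouse whose gap to its nearest neighbour exceeded Dixon's 95% critical value, where chance alone flags about 1 in 20. *Scarb1* was lowest in vehicle replicate 2, at 122 CPM against 149 CPM in the next vehicle mouse. *Lipc* and *Pltp* were highest in vehicle replicate 10, at 162 and 285 CPM against 114 and 206 CPM in the next mouse. *Lpl* was highest in OCA replicate 8, at 525 CPM against 319 CPM. *Abca1* was lowest in INT-787 replicate 8, at 113 CPM against 189 CPM.

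Some of these mice, and others, were at the edge of their group in several members. INT-787 replicate 8 was the lowest of its group in 9 of the 10 members, *Lipc* being the exception, and in 19.8% of the 12580 tested genes, with a length index of -0.25. OCA replicate 8 was lowest in 4 members (*Vldlr*, *Lrp1*, *Cd36* and *Lipc*) and highest in 2 (*Lpl* and *Abcg1*), beside 18.9% and 22.9% of tested genes, and vehicle replicate 10 was lowest in 3 (*Vldlr*, *Lrp1* and *Abca1*) and highest in 3 (*Lipc*, *Pltp* and *Lcat*), beside 19.3% and 20.1% of tested genes. Vehicle replicate 2 was lowest in 1 member and highest in 1, beside 6.49% and 7.23% of tested genes. Of mice without such a gap, vehicle replicate 1 was lowest in 3 members and highest in 4, and INT-787 replicate 4 and OCA replicate 2 were highest in 5 and 4. Without INT-787 replicate 8, *Vldlr*, *Lpl* and *Pltp* still passed against vehicle, with log2 fold changes of -0.81, -0.65 and -0.42 (edgeR, adjusted p = 0.0186, 0.0194 and 0.0293), and *Lrp1* passed at 0.54 (adjusted p = 0.0318). The cause was not tested.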

How the results depend on the processing

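The number of members that passed stayed within 1.5 times the main count for INT-787 against vehicle (5 to 8) and for OCA against vehicle (3 to 6) over all 42 alternatives. Between the drugs it was 2 in the main test and 1 with DESeq2's size factors, without a filter, with DESeq2 or edgeR on 2 groups per fit, with the replicate block, with the number set and at the threshold of 0.01, and 1 to 3 over the fits that left out 1 mouse. In each of these, the lost call was *Lpl*, for which leaving out any of 20 mice, OCA replicate 8 included, was enough. Over all 30 values of members, 1181 of 1260 alternatives kept direction and side of the threshold, 30 lost a call, 35 gained one and 14 changed sign. The sign changed only for values near 0. *Lrp1* between the drugs was -0.0090 with upper-quartile normalization, -0.0032 with at least 10 counts in every mouse and -0.00089 with the number set, and ranged from -0.054 to 0.11 without 1 mouse. *Abca1* with OCA was -0.053 with the replicate block, -0.084 without vehicle replicates 5 and 10 and ranged from -0.052 to 0.11 without 1 mouse. *Lpl* with OCA was 0.070 without vehicle replicates 5 and 10 and ranged from -0.24 to 0.017 without 1 mouse.

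Gained calls were *Lrp1* with INT-787 in 14 alternatives, DESeq2 (adjusted p = 0.0378) and limma-voom (adjusted p = 0.0382) among them, and in 2 with OCA, *Lipc* with OCA in 8 and between the drugs in 1, *Abca1* with INT-787 in 4 and between the drugs in 1, *Pltp* with OCA in 3 and *Cd36* with INT-787 in 2. *Cd36* with INT-787 passed with upper-quartile normalization (log2 fold change -0.30, adjusted p = 0.0395), which moved the median of all genes from 0.00 to -0.06. Lost were *Pltp* with INT-787 in 2 and *Lcat* with OCA at the threshold of 0.01. The replicate block gave 8, 5 and 1 members, with 19.2%, 6.9% and 5.38% of all genes called. Between mice of the same replicate number, the correlation of deviations had medians of 0.01 (vehicle and OCA, 3 of 9 pairs above 0.1), -0.06 (vehicle and INT-787, 4 of 9) and 0.23 (OCA and INT-787, 7 of 9). For other pairs the medians were 0.02, 0.02 and -0.04. Whether shared numbers mark a pairing was not tested, and the main fit held no block. The block gave *Lrp1* with INT-787 0.39 (adjusted p = 0.0351). Mice of 1 set of neighbouring numbers, which the labels do not call a batch, had medians of 0.12 (4 of 8 pairs above 0.1), 0.17 (5 of 9) and 0.31 (6 of 8), against -0.01, -0.01 and -0.05 for other pairs. Depth limits *Vldlr* most, with 14 counts in vehicle replicate 6. The cause of these shifts was not tested.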
